A study of Drosophila melanogaster with 4 samples.

Results

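The humoral immune genes of Drosophila melanogaster were followed in testes of bam- flies and of Phf7-bam- flies. The set held 41 genes, chosen by name as the antimicrobial peptides, the peptidoglycan recognition proteins (PGRPs), the Turandot stress genes, the immune-induced (IM) peptides, the transferrin Tsf1, and the NF-kB factors and receptor of the Toll and Imd pathways. All 41 were present among the 14664 genes of the tables. Both genotypes lack bam, which germ cells need to leave the spermatogonial divisions, so the testes of both groups fill with early germ cells. The second group also lacks Phf7, a PHD finger gene of male germline identity. Testes came from flies within 3 days of eclosion grown at 25°C, and each genotype had 2 biological replicates, called bam and Phf7 bam replicates 1 and 2 here, the latter also the double mutant. The alleles, the strain background and the number of testes pooled are not given in the labels.

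In flies, bacterial and fungal cell walls are sensed by PGRPs and related proteins. The Toll pathway then acts through dorsal (dl) and Dif, and the Imd pathway through Relish (Rel), which switch on genes for small secreted peptides, mostly in the fat body and in haemocytes and also in barrier epithelia. Turandot genes are switched on by stress through JAK-STAT and the kinase Mekk1. The amidase PGRPs cut peptidoglycan and so dampen the Imd response.

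Values are FPKM, fragment abundances scaled to transcript length and library size. The summed FPKM lay between 650127 and 662056 per library, and 8650 to 8873 genes per library reached 1 FPKM. Absolute depth is unknown. From the spacing of the lowest values, taking bam replicate 1 as 1, relative depth was 1.23 in bam replicate 2, 1.16 in Phf7 bam replicate 1 and 1.42 in Phf7 bam replicate 2. Transcript of Phf7 itself (CG9576 in the tables) stood at 173 and 152 in bam, against 18.8 and 22.9 FPKM in the double mutant. The bam transcript stood at 26.5 to 32.6 FPKM with overlapping groups. Whether the values of either gene include the part altered by the mutation is unknown. Germline markers (9 genes, summed at 735 to 883 FPKM) and somatic gonad markers (7 genes, 181 to 210 FPKM) were above 0 in all 4 libraries.

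The libraries differed in RNA of other organs in a way that crossed genotype. The 7 accessory gland (Acp) genes, which encode seminal fluid proteins, summed to 25.2 FPKM in bam replicate 1 and 46.7 FPKM in Phf7 bam replicate 2. They summed to 1645 FPKM in bam replicate 2 and 3277 FPKM in Phf7 bam replicate 1. Each genotype thus had 1 library low and 1 library high in these transcripts, and differences within the low pair and within the high pair are given beside the pooled ones. Fat body markers (11 genes) summed to 32.7 and 49.3 FPKM in bam and to 57.0 and 82.0 FPKM in Phf7 bam libraries. Without the storage protein gene Lsp2 these sums were 30.3 and 42.2 FPKM in bam, against 39.0 and 62.3 FPKM in the double mutant, and the groups overlapped. Of the 11 fat body genes 4 were higher in both Phf7 bam libraries, 2 (Yp1 and Yp2) were lower in both and 5 overlapped. None was at 0 in any library. Of the 8 with a mean of at least 1 FPKM, 4 were higher in both and 0 lower. Over all genes with such a mean, 20.5% were higher in both Phf7 bam libraries and 14.0% lower in both. Haemocyte markers (11 genes in the tables) summed to 163 and 188 FPKM in bam and to 194 and 230 FPKM in Phf7 bam libraries. Most of it came from Col4a1 (62.0 to 93.1 FPKM), vkg (35.7 to 57.0 FPKM) and crq (40.4 to 50.6 FPKM). Col4a1 and vkg were higher in both Phf7 bam libraries, and crq overlapped. Of the 11 haemocyte genes 8 were higher in both Phf7 bam libraries and 3 overlapped. Of the 8 with a mean of at least 1 FPKM, 6 were higher in both. Among the overlapping genes was the defining marker He, listed at 0 in all 4 libraries. The He locus of 854 bp overlaps nimB5 by 80 bp. Whether that overlap bears on the 0 was not tested, and the 0 is not read as absence. Gut markers (11 genes) summed to 153 and 112 FPKM in bam and to 192 and 232 FPKM in Phf7 bam libraries, most of it from the amylase genes Amy-p and Amy-d. The other 9 gut genes summed to 11.9 and 3.57 FPKM in bam, against 14.9 and 4.96 FPKM in the double mutant, higher in replicate 1 of both genotypes. Muscle markers (7 genes) summed to 390 to 545 FPKM with overlapping groups. In whole testes, a change in the number of cells of a type and a change in RNA per cell cannot be told apart.

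**Figure D1:**
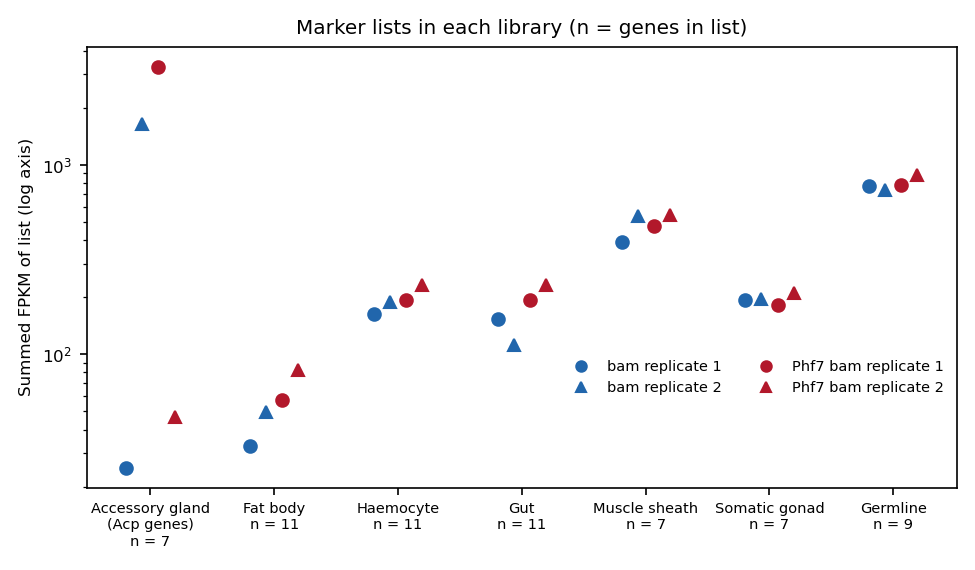
Summed FPKM of marker gene lists (y axis, log scale) in each of the 4 libraries, with the number of genes per list below its name; blue marks bam, red marks Phf7 bam, circles replicate 1 and triangles replicate 2. The accessory gland genes lie at 25.2 and 46.7 FPKM in one library of each genotype and at 1645 and 3277 FPKM in the other, while the fat body list lies higher in both Phf7 bam libraries, though not without Lsp2.

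The immune set was carried by 1 gene. IM4 (2R, 16756341 to 16756826 in dm3; current symbol Dso1) encodes a small haemolymph peptide induced by infection. It stood at 1079 and 1145 in bam, against 1357 and 1472 FPKM in the double mutant, and ranked between 84 and 110 among all genes. IM4 made up 75.8% to 84.6% of the summed FPKM of the 41 genes in each library. IM3 followed at 61.7 to 242 FPKM, and all other members lay under 30 FPKM in every library. Of the 41 genes 25 had a mean of at least 1 FPKM and were tested, 6 were listed at 0 in all 4 libraries, and the other 10 lay below that mean.

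**Figure D2:**
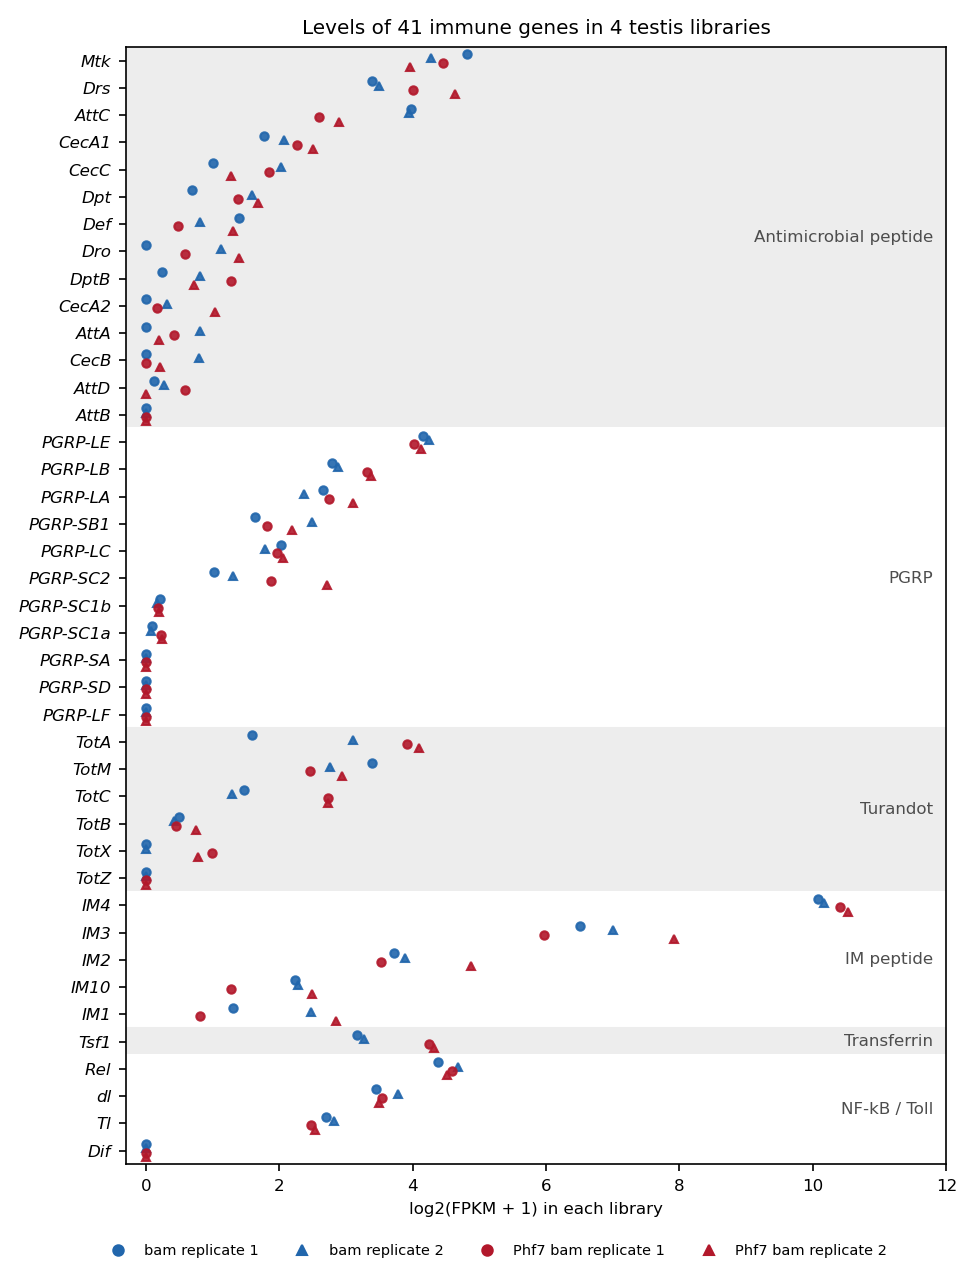
Level of each of the 41 genes as log2(FPKM + 1) (x axis) in each library, grouped by role and sorted by mean within a role; blue marks bam, red marks Phf7 bam, circles replicate 1 and triangles replicate 2. IM4 lies above all other members, and AttB, PGRP-SA, PGRP-SD, PGRP-LF, TotZ and Dif lie at 0 in every library.

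The comparison between genotypes asks which immune transcripts differ when Phf7 is lost from bam testes. None of the 25 tested members passed limma's test at an adjusted p under 0.05, where 0.123% of the 8965 tested genes were called higher (11 genes) and 0.112% lower (10 genes) in Phf7 bam testes. With equal medians or quantile normalization that split was 7 higher and 11 lower. At an unadjusted p under 0.05, 7 members were higher and 1 was lower, where the shares over all tested genes were 3.99% and 2.14%. The 7 were TotA, TotC, PGRP-SC2, Tsf1, Drs, PGRP-LB and IM4, and the 1 was AttC. With robust moderation, in which genes of outlying spread are set apart and the rest borrow more from each other, limma called TotC, Tsf1, Drs and PGRP-SC2 higher and AttC lower, where 3.42% of tested genes were called in either direction. Both Phf7 bam libraries lay above both bam libraries in 9 of 25 members and below them in 3, against 20.5% and 14.0% of all tested genes. The 9 were the 7 named above with CecA1 and PGRP-LA, and the 3 were AttC, PGRP-LE and Tl. The median difference in log2(FPKM + 1) was 0.11 over the 25 members and 0.03 over all tested genes.

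**Figure D3:**
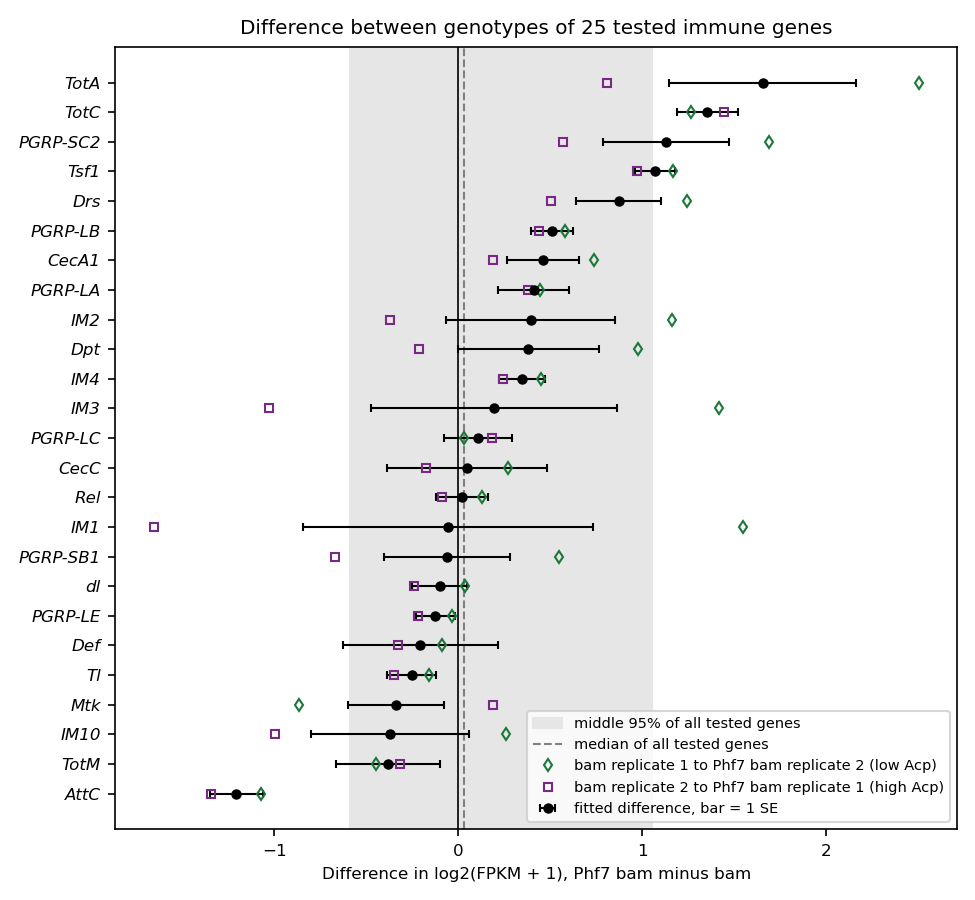
Difference in log2(FPKM + 1) between genotypes (x axis, Phf7 bam minus bam) for the 25 tested members, as the fitted difference with a bar of 1 SE (black), within the library pair low in accessory gland transcripts (green diamonds) and within the pair high in them (purple squares). TotA, TotC, PGRP-SC2 and Tsf1 lie to the right of the grey band, the central range of all tested genes from -0.59 to 1.05, and AttC to its left, while IM1 and IM3 have opposite signs in the pairs.

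Among the Turandot genes, which encode small secreted proteins of the stress response, TotA and TotC were higher in both Phf7 bam libraries and TotM was not. TotA (3R, 16696758 to 16697427) stood at 2.03 and 7.60 in bam replicates 1 and 2, against 14.0 and 16.2 FPKM in the double mutant replicates. The groups did not overlap, and the bam replicates were farther apart than the Phf7 bam replicates. The difference was 1.66 on the log2(FPKM + 1) scale (SE 0.509, limma adjusted p = 0.672; 0.0161 to 0.940 over the alternatives). It was 2.5 within the low accessory pair and 0.81 within the high pair. Without bam replicate 2 it was 2.41 and passed the test (limma adjusted p = 0.0161), and without bam replicate 1 it was 0.90 (limma adjusted p = 0.665).

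TotC (3R, 16698710 to 16699310), the next gene of the cluster, stood at 1.77 and 1.44 in bam, against 5.64 and 5.66 FPKM in the double mutant. The groups did not overlap and the replicates lay close together. The difference was 1.36 (SE 0.167, limma adjusted p = 0.147; 1.28e-08 to 0.412 over the alternatives). It was 1.27 in the low accessory pair and 1.44 in the high pair. TotM, a stress gene that lies apart from the others on 2L, stood at 9.46 and 5.82 in bam, against 4.48 and 6.68 FPKM in the double mutant, and its groups overlapped (difference -0.38, SE 0.283, limma adjusted p = 0.919; -0.69 to -0.07 with 1 library left out).

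The remaining Turandot genes lay below the tested range. TotX was listed at 0 in both bam libraries, against 0.98 and 0.72 FPKM in the double mutant. No fold is given for it, and the whole locus lies within that of CG5621, which stood at 0.078 FPKM or less. TotB lay between 0.34 and 0.69 FPKM, and TotZ was listed at 0 in all 4 libraries. Multiplied by relative depth, TotB stood at 0.419, 0.420, 0.420 and 0.979 in bam replicates 1 and 2 and Phf7 bam replicates 1 and 2. The Turandot members on 3R did not share 1 pattern: along 34.5 kb, TotA, TotC and TotX were higher in both Phf7 bam libraries, TotB in 1 of them, and TotZ was at 0.

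**Figure D4:**
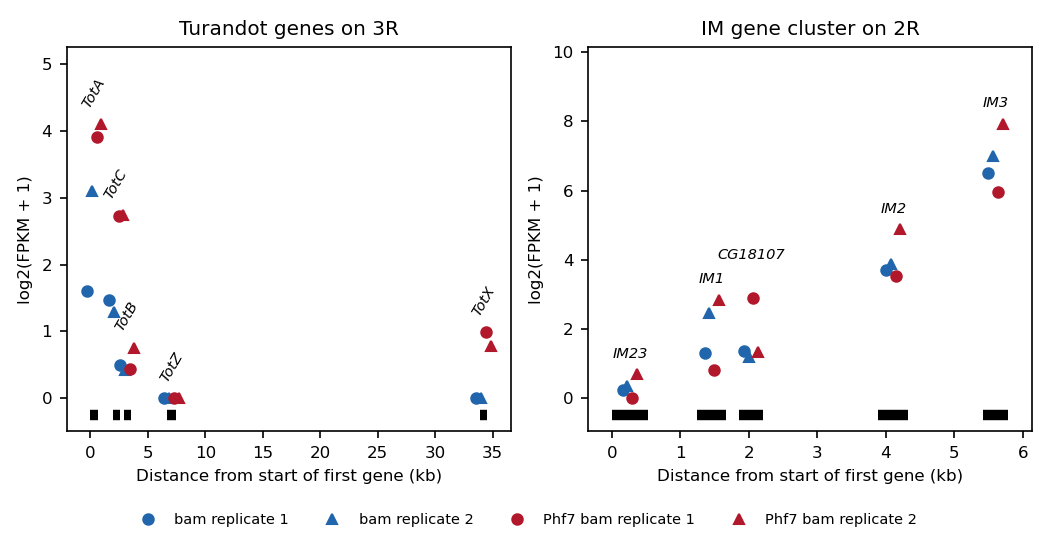
Level of clustered genes as log2(FPKM + 1) (y axis) against distance from the start of the first gene in kb (x axis), for the Turandot genes on 3R (left) and the IM genes on 2R (right); black bars mark gene loci, blue bam, red Phf7 bam, circles replicate 1 and triangles replicate 2. TotA and TotC separate the genotypes, whereas IM1, IM2 and IM3 are highest in Phf7 bam replicate 2 and lowest in Phf7 bam replicate 1.

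Tsf1 (X, 18281965 to 18284377), an iron-binding protein of the haemolymph that is induced by infection, separated the genotypes with close replicates. It stood at 7.95 and 8.68 in bam, against 18 and 19.1 FPKM in the double mutant, a ratio of means of 2.23. The difference was 1.07 (SE 0.108, limma adjusted p = 0.0852; 3.60e-09 to 0.475 over the alternatives), with 1.17 in the low accessory pair and 0.97 in the high pair. Tsf1 passed when only genes with a mean of at least 5 FPKM were tested (limma adjusted p = 0.0247), with robust moderation (3.60e-09) and with the accessory pairs as a block (0.0107), an alternative chosen after seeing the data. In that block TotC (limma adjusted p = 0.0179) and AttC (0.00719) passed as well. Lsp2, a storage protein of the fat body, stood at 2.38 and 7.12 in bam, against 18 and 19.7 FPKM in the double mutant, and Hml, a haemocyte gene, at 3.14 and 1.89, against 5.23 and 4.78 FPKM. Lsp2 and Hml were thus higher in the same libraries as TotA, TotC and Tsf1. Of the tested genes, 4 of 8 in the fat body list and 6 of 8 in the haemocyte list were so. The share over all tested genes was 20.5%. The part of fat body and haemocyte RNA in the differences was not tested.

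The antimicrobial peptides, which kill bacteria or fungi by damaging their envelopes, differed in sign. Of 14 genes 7 were tested, of which 4 had a positive and 3 a negative difference, with a median of 0.05. The peptides present in bam testes were mainly metchnikowin (Mtk), attacin C (AttC) and drosomycin (Drs), and the remaining 11 stayed under 5 FPKM in every library.

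AttC (2R, 9281210 to 9282184), a glycine-rich peptide against Gram-negative bacteria, was the only member lower at an unadjusted p under 0.05. It stood at 14.7 and 14.3 in bam, against 5.06 and 6.46 FPKM in the double mutant, a ratio of means of 0.397. The groups did not overlap. The difference was -1.21 (SE 0.143, limma adjusted p = 0.138; 5.32e-11 to 0.390 over the alternatives), with -1.07 in the low accessory pair and -1.34 in the high pair. AttC passed among genes with a mean over 5 FPKM (limma adjusted p = 0.0496) and with robust moderation (5.32e-11). It overlaps CG4744 by 94 bp, and that gene was listed at 0 in all 4 libraries.

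Drs (3L, 3369569 to 3369944), an antifungal peptide and a classical readout of the Toll pathway in the fat body, went the other way. It stood at 9.48 and 10.3 in bam, against 15.0 and 23.8 FPKM in the double mutant. The groups did not overlap, and Phf7 bam replicate 2 stood well above replicate 1. The difference was 0.87 (SE 0.231, limma adjusted p = 0.578), with 1.24 in the low accessory pair and 0.50 in the high pair. Robust moderation was the only setting in which Drs passed (limma adjusted p = 3.94e-06). With the filter at 5 FPKM it was 0.336.

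Mtk, an antifungal and antibacterial peptide and the antimicrobial gene with the highest mean, stood at 27.2 and 18.3 in bam, against 20.9 and 14.5 FPKM in the double mutant. Its groups overlapped (difference -0.34, SE 0.262, limma adjusted p = 0.923; -0.61 to -0.06 with 1 library left out), and the difference was -0.86 in the low accessory pair and 0.19 in the high pair.

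The cecropins, helical peptides encoded by 4 neighbouring genes in 6.06 kb of 3R, were led by CecA1. It stood at 2.43 and 3.21 in bam, against 3.8 and 4.71 FPKM in the double mutant, without overlap between the groups (difference 0.46, SE 0.197, limma adjusted p = 0.847). CecC stood at 1.0 and 3.06 in bam, against 2.60 and 1.41 FPKM in the double mutant, so the difference of 0.05 (-0.055 with quantile normalization) lay within the spread of replicates. CecA2 reached 1.05 FPKM and CecB 0.73 FPKM at most, with CecA2 at 0 in bam replicate 1 and CecB at 0 in bam replicate 1 and Phf7 bam replicate 1. Cecropin copies resemble each other, so their values are uncertain where reads fit more than 1 copy.

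The other peptide genes, mostly activated through Imd, were at low levels. Diptericin (Dpt) stood at 0.62 and 2.03 in bam, against 1.61 and 2.19 FPKM in the double mutant, and defensin (Def) at 1.63 and 0.76, against 0.40 and 1.48 FPKM. Both had overlapping groups, with limma adjusted p = 0.941 and 0.982. The Def locus lies wholly within magu, which stood at 3.64 to 4.57 FPKM. DptB, drosocin (Dro), AttA and AttD lay between 0 and 1.63 FPKM and AttB was listed at 0 in all 4 libraries. Dro and AttA were at 0 in bam replicate 1, and AttD was at 0 in Phf7 bam replicate 2. AttA and AttB are near-identical neighbours, so reads of 1 may be counted for the other.

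Among the PGRPs, 6 of 11 were tested, 4 with a positive and 2 with a negative difference. The sensors of the Imd pathway had differences of at most 0.12 in size. PGRP-LE, an intracellular sensor with the highest mean of the family, stood at 16.8 and 17.9 in bam, against 15.3 and 16.4 FPKM in the double mutant (difference -0.12, SE 0.105, limma adjusted p = 0.923), slightly lower in both double mutant libraries. PGRP-LC, the transmembrane receptor, stood at 3.08 and 2.44, against 2.90 and 3.17 FPKM, with overlapping groups (difference 0.11, SE 0.185, limma adjusted p = 0.979). Its neighbour PGRP-LA, a transmembrane member with a modulating role, stood at 5.32 and 4.18, against 5.73 and 7.60 FPKM (difference 0.41, SE 0.192, limma adjusted p = 0.903), without overlap between the groups. PGRP-LF, an inhibitory receptor of the same cluster, was listed at 0 in all 4 libraries.

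The amidases that break down peptidoglycan held the 2 PGRP members with an unadjusted p under 0.05. PGRP-LB (3R, 7278563 to 7283742), the main amidase that dampens Imd, stood at 5.95 and 6.38 in bam, against 9.0 and 9.39 FPKM in the double mutant. The replicates lay close together and the groups did not overlap. The difference was 0.51 (SE 0.114, limma adjusted p = 0.439), with 0.58 in the low accessory pair and 0.44 in the high pair. The lowest of the alternatives was robust moderation, where PGRP-LB did not pass either (limma adjusted p = 0.0781). The whole PGRP-LB locus overlaps CG17230, which stood at 3.75 and 4.50 in bam, against 4.96 and 5.43 FPKM in the double mutant. Whether their exons overlap was not examined, and reads of any shared sequence cannot be told apart without strand.

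PGRP-SC2 (2R, 4604472 to 4605026), a secreted amidase, stood at 1.03 and 1.48 in bam, against 2.68 and 5.57 FPKM in the double mutant. The groups did not overlap, and the Phf7 bam replicates lay far apart. The difference was 1.13 (SE 0.341, limma adjusted p = 0.671), with 1.69 in the low accessory pair and 0.57 in the high pair. PGRP-SC2 passed with robust moderation only (limma adjusted p = 2.91e-05). Its cluster neighbours PGRP-SC1a and PGRP-SC1b, which are near-identical to each other, stayed under 0.2 FPKM in every library. Multiplied by relative depth, PGRP-SC1b stood at 0.156, 0.157, 0.157 and 0.209 in bam replicates 1 and 2 and Phf7 bam replicates 1 and 2, whereas PGRP-SC1a stood at 0.0641, 0.0643, 0.193 and 0.257. PGRP-SC1a was thus above its bam level in both Phf7 bam libraries, from very few fragments. PGRP-SB1, another secreted amidase, stood at 2.13 and 4.63, against 2.54 and 3.57 FPKM (difference -0.06, SE 0.342, limma adjusted p = 0.989).

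PGRP-SA and PGRP-SD, circulating sensors upstream of Toll, were listed at 0 in all 4 libraries. PGRP-SD lies wholly within CG32373, which stood at 1.27 to 2.19 FPKM. PGRP-SA overlaps RpII215, a subunit gene of RNA polymerase II, by 8 bp, and RpII215 stood at 56.7 to 65.0 FPKM. Of the 13 members whose locus overlaps another gene, 5 (38.5%) were listed at 0 throughout. Of the 28 members without such an overlap it was 1 (3.57%), TotZ. Over all genes, 16.4% of those with an overlapping locus and 8.81% of those without one were listed at 0 in all 4 libraries. A listed 0 in such a gene therefore does not show that its transcript was absent.

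The IM peptides were first found as molecules that appear in haemolymph after infection. In 4 of the 5 genes the genotypes overlapped. IM4 was higher in both Phf7 bam libraries, with a difference of 0.35 (SE 0.127, limma adjusted p = 0.797; 0.541 with robust moderation). It was 0.45 in the low accessory pair and 0.25 in the high pair.

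IM1, IM2 and IM3 (current symbols BomS1, BomS2 and BomS3), short Bomanin peptides that depend on Toll, lie within a cluster of 5.79 kb on 2R. IM3 stood at 90.0 and 127 in bam replicates 1 and 2, against 61.7 and 242 FPKM in the double mutant replicates. IM2 stood at 12.1 and 13.9, against 10.5 and 28.4 FPKM, and IM1 at 1.47 and 4.55, against 0.76 and 6.22 FPKM. In all 3 genes the Phf7 bam libraries were the highest and the lowest of the 4, so that the replicates of 1 genotype differed more than the genotypes did. Their differences were 0.19 for IM3 (SE 0.669), 0.39 for IM2 (SE 0.459) and -0.05 for IM1 (SE 0.789), with limma adjusted p = 0.988, 0.964 and 0.995. The difference of IM3 was 1.42 in the low accessory pair and -1.03 in the high pair. The fat body genes Fbp1 and Fbp2 were also highest in Phf7 bam replicate 2, at 6.88 and 10.0 FPKM, but their lowest values were in bam replicate 1, at 1.78 and 1.78 FPKM. The part of fat body RNA in the spread of the IM genes was not tested.

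The cluster gene CG18107 (current symbol BomS4) did not follow its neighbours. It stood at 1.60 and 1.31 FPKM in bam, at 6.47 FPKM in Phf7 bam replicate 1 and at 1.51 FPKM in replicate 2, the reverse of IM3 in the double mutant. IM10 stood at 3.72 and 3.86 in bam, against 1.43 and 4.65 FPKM in the double mutant. The genotypes overlapped (difference -0.37, SE 0.428, limma adjusted p = 0.964). CG33470 (current symbol BaraA1), a copy of the same length, stood at 3.72 and 3.86 in bam and 1.43 and 4.65 FPKM in the double mutant as well, so reads of these copies cannot be assigned to either.

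The spread between replicates differed among the roles. Among members the median gap between replicates was 0.29 in bam and 0.30 in Phf7 bam on the log2(FPKM + 1) scale, against 0.10 and 0.21 over all tested genes and 0.12 and 0.20 over the 6182 tested genes with a mean under 30 FPKM. For the IM peptides the gap was 0.18 in bam and 1.35 in Phf7 bam, and for the antimicrobial peptides 0.55 and 0.50. It was 0.26 and 0.22 for the PGRPs, 0.62 and 0.19 for the Turandot genes, and 0.30 and 0.064 for the NF-kB factors and Tl. Of the 25 tested members 10 were higher in Phf7 bam in both accessory pairs, 5 were lower in both and 10 had opposite signs. Over all tested genes the shares were 29.7%, 20.9% and 47.3%.

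The transcription factors and the receptor of these pathways had differences from -0.25 to 0.02. Rel, the NF-kB factor of Imd, stood at 19.8 and 24.7 in bam, against 23.2 and 21.8 FPKM in the double mutant, a difference of 0.02 (SE 0.141, limma adjusted p = 0.989; -0.0040 with equal medians). The Rel locus overlaps Nmdmc over its whole length. dl, a factor of Toll, stood at 9.93 and 12.8, against 10.7 and 10.2 FPKM (difference -0.10, SE 0.15, limma adjusted p = 0.977). Toll itself (Tl) stood at 5.50 and 6.09 in bam, against 4.58 and 4.83 FPKM in the double mutant (difference -0.25, SE 0.133, limma adjusted p = 0.906), lower in both libraries without passing the test. Dif, the other factor of Toll, was listed at 0 in all 4 libraries, and its locus overlaps dl by 3094 bp and 3 further genes.

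No gene of the other signalling and humoral lists was called, where 0.123% and 0.112% of all tested genes were called higher and lower. Of 15 Toll pathway genes 12 were tested, 5 with a positive and 7 with a negative difference, from -0.33 to 0.37 with a median of -0.03. Their most abundant member was cact, the inhibitor that holds dl in the cytoplasm, at 44.8 and 49.7 FPKM in bam and 41.1 and 47.9 FPKM in Phf7 bam testes (limma adjusted p = 0.979). All 17 Imd pathway genes were tested, 11 with a positive and 6 with a negative difference, from -0.14 to 0.39 with a median of 0.04. The highest was eff, a ubiquitin-conjugating enzyme with many other roles, at 350 and 382 FPKM in bam and 379 and 433 FPKM in Phf7 bam testes (limma adjusted p = 0.931). Of the 6 other Toll family receptors 2 were tested, and the other 4 stayed under 1 FPKM. Tollo stood at 6.76 to 8.04 FPKM (limma adjusted p = 0.974).

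Of 9 JAK-STAT and Mekk1 genes, the known inputs of Turandot genes, 5 were tested, with differences from -0.10 to 0.16. Stat92E, the transcription factor of the pathway, stood at 75.6 and 77.7 in bam, against 76.5 and 89.4 FPKM in the double mutant (difference 0.11, limma adjusted p = 0.964). Among 18 other humoral genes 12 were tested, 8 with a positive and 4 with a negative difference, with a median of 0.25. LysX, a lysozyme, was the 1 gene of the 12 with an unadjusted p under 0.05, where 3.99% of all tested genes were higher and 2.14% lower by that rule. It stood at 20.2 and 15.3 in bam, against 24.4 and 26.9 FPKM in the double mutant (difference 0.52, SE 0.162, limma adjusted p = 0.678). LysX passed with robust moderation only (limma adjusted p = 0.0283). The thioester protein Mcr, the most abundant of this list, stood at 40.2 to 47.8 FPKM (limma adjusted p = 0.983).

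**Figure D5:**
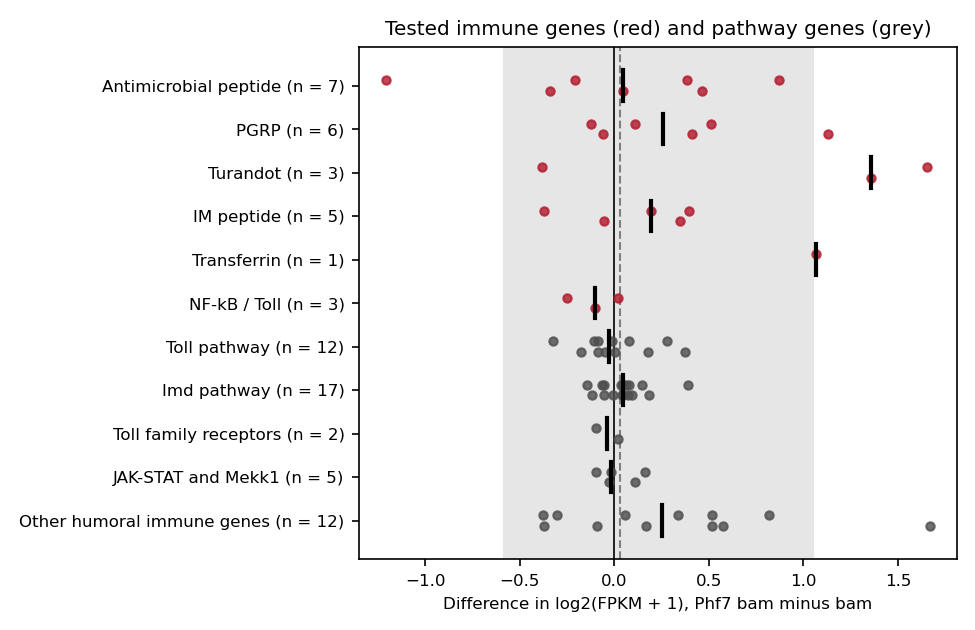
Difference in log2(FPKM + 1) between genotypes (x axis, Phf7 bam minus bam) of tested genes, with 1 row per role group of the immune set (red) or pathway list (grey) and n as the number of tested genes; black bars mark medians, the grey band the central range of all tested genes and the dashed line their median. The Toll, Imd and JAK-STAT genes lie close to 0, within -0.33 to 0.39, and TotA, TotC, Tsf1, PGRP-SC2 and AttC lie farthest out within the immune set.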

How the data were processed

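RNA of dissected testes was selected with oligo-dT beads and made into directional libraries, per the labels' protocols. Build dm3 and the tools TopHat2, Cufflinks and Cuffdiff are named in the submitters' processing notes, without versions or settings. How strand entered and which annotation was used is not given in the sources used here. Each library has 1 table of FPKM per gene, made by the authors, per the file headers. Coordinates are dm3, counted from 1.

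The 8965 of 14664 genes whose FPKM averaged 1 or more were tested as log2(FPKM + 1) by limma 3.58.1 in R 4.3.3, two-sided, with empirical Bayes moderation and a trend, and Benjamini-Hochberg adjustment over all tested genes (called under 0.05). The residual had 2 degrees of freedom and the prior 2.64. No count test was applied to FPKM. Relative depth is the most frequent ratio of values under 0.15 FPKM (21.4% to 22.8% of such genes). The fit was tested on simulated data. Tables and plots used Python 3.11.15.

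The members and lists were chosen with earlier results of these data known. All members are accounted for. Given in full are those with an unadjusted p under 0.05, those with separate groups and a difference of at least 1, and the highest mean of each role; pathway genes follow the same rule by p and highest mean. CG18107, CG33470, Lsp2, Hml, He, Col4a1, vkg, crq, Fbp1, Fbp2, Yp1, Yp2, Amy-p, Amy-d, the genes of the closing section and genes named as overlaps were chosen after their values were seen. Of the genes written into lists 4 entries are not analysed here. P-values set the difference between genotypes against a spread taken from the replicates as labelled and moderated towards that of other genes. Left-out libraries, other pseudocounts, filters, scalings, moderation and blocks were tried.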

Additional observations from a re-analysis of the deposited data

How the results depend on the processing

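No immune member was called with pseudocounts of 0.1 or 0.5, without trend, with no filter, with equal medians or with quantile normalization. A filter at 5 FPKM gave 20 genes higher and 17 lower, of which 1 and 1 were members. Robust moderation gave 217 and 90, of which 4 and 1 were members. No filter gave 0 and 0 (1051 at an unadjusted p under 0.05), while 7 were higher with equal medians and 7 with quantile normalization. Leaving out each library in turn leaves a lone library whose spread is taken from the other genotype. Such fits called 0 to 45 genes higher and 0 to 56 lower, and 0 to 1 members higher. Without either Phf7 bam library no gene was called (1432 and 979 at an unadjusted p under 0.05). A member that misses the threshold with 2 libraries per genotype may still differ.

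The sign changed for CecC with quantile normalization (-0.055), and for Rel with equal medians (-0.0040) and quantile normalization (-0.0097). With a library left out, the sign changed for 11 of 25 members and 3 of 6 named pathway genes; the cause was not tested. The differences then ranged from -0.46 to 0.56 for CecC, -0.068 to 0.83 for Dpt, -0.62 to 0.20 for Def, -0.48 to 0.36 for PGRP-SB1, -0.016 to 0.23 for PGRP-LC, -1.07 to 0.96 for IM1, -0.28 to 1.07 for IM2, -0.78 to 1.17 for IM3, -0.98 to 0.24 for IM10, -0.13 to 0.17 for Rel, -0.27 to 0.068 for dl, -0.20 to 0.022 for cact, -0.0022 to 0.22 for Stat92E and -0.063 to 0.18 for Mcr. Of those that kept their sign, Drs ranged from 0.56 to 1.19, PGRP-SC2 from 0.71 to 1.55, PGRP-LA from 0.23 to 0.59, PGRP-LE from -0.17 to -0.078, LysX from 0.33 to 0.71, eff from 0.053 to 0.24 and Tollo from -0.18 to -0.014.

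With the replicate block 8 genes were called higher and 10 lower, and 0 members. Deviations of libraries with the same number correlated at -0.37 across genes, which cannot show whether such libraries share a preparation. The gut genes other than the amylases summed higher in replicate 1 of both genotypes, and the cause was not tested. The crossed pairing, added after seeing the data, gave 98 genes higher and 35 lower, of which 2 (TotC and Tsf1) and 1 (AttC) were members.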

Other observations

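The cytokine genes that activate JAK-STAT signalling lay below the tested range and were lower in both double mutant libraries. Over the tested genes, which leave these cytokine genes out, that share was 14.0%. No share is given for genes at their level. Such low values rest on few fragments. upd3 stood at 0.81 and 1.08 in bam, against 0.68 and 0.46 FPKM in the double mutant. upd1 (os in the tables) stood at 0.26 and 0.28, against 0.20 and 0.21 FPKM. upd2 stood at 0.25 and 0.24 FPKM in bam, at 0.13 FPKM in Phf7 bam replicate 1 and at 0 in replicate 2. With no filter on FPKM, the fit that includes them called no gene.

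Some lysozyme genes, which encode enzymes that cut bacterial cell walls, were high in single libraries. LysD stood at 0 and 0.14 FPKM in bam, at 6.78 FPKM in Phf7 bam replicate 1 and at 0.48 FPKM in replicate 2. LysB stood at 0 and 2.14 in bam, against 5.27 and 0.11 FPKM in the double mutant. LysB and LysD were thus highest in Phf7 bam replicate 1, whereas LysX was highest in Phf7 bam replicate 2. Phf7 bam replicate 1 had the most Acp transcripts and also the highest sum of gut genes without the amylases (14.9 FPKM). In bam replicate 2, the other library high in Acp transcripts, LysB stood at 2.14 FPKM and LysD at 0.14 FPKM. The source of the lysozyme transcripts was not tested. The lysozyme copies resemble each other, so their values are uncertain.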
